A study of Mus musculus with 10 samples.

Results

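The nuclear receptors described here are 36 mouse genes of the ligand-activated and orphan receptor families, taken by symbol. A further 12 receptors were counted with the adrenal cortex and the circadian clock and left out, among them Nr5a1, Nr0b1, Nr3c1, Nr1d1 and Nr1d2, while Rora and Rorb, which also act on clock genes, are in the list. A receptor was measured where a probe of the array was annotated to that gene alone, which held for 34 of the 36 and gave 1 probe for each, among 19661 genes measured in this way. Nr1h2 and Nr2e3 were left without a value. The list was drawn up by gene family and not by measured level, though earlier results of these data were known when it was chosen.

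RNA of whole adrenal glands was hybridised to 10 Affymetrix mouse gene arrays, 5 from Crem-/- mice (KO) and 5 from wild type mice (WT). Crem encodes a transcription factor that binds cAMP response elements, and the comparison asks what its loss does to transcript levels in the adrenal gland. All mice were 8 weeks old, untreated and of mixed 129Pas x C57Bl/J background, and were killed at 0 h circadian time, and the labels read here do not give their sex. The titles place the arrays in batches: batch 1 held KO 1, KO 2 and WT 1, batch 2 held KO 3 and KO 4, batch 3 held KO 5, WT 2, WT 3 and WT 4, and batch 4 held WT 5. Where batch is given as a block below, each batch had its own level in the fit. Batches 2 and 4 lack the other genotype, so KO 3, KO 4 and WT 5 do not enter the difference with batch as a block. That difference is a weighted mean of those within batch 1 and within batch 3. A gland taken whole holds cortex, medulla, capsule and vessels together with any tissue left around it, so that fewer cells of a type and less RNA per cell cannot be told apart. The Crem probe averaged 7.36 ± 0.51 on KO arrays and 7.54 ± 0.37 on WT arrays (log2, SD, n = 5 each), and since its place relative to the deleted part of the gene is not known here, it does not check the genotype labels.

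Nuclear receptors are transcription factors that bind short DNA elements, many of them in pairs built on the sequence AGGTCA, and many of them answer to a small lipophilic ligand. The retinoid X receptors are the shared dimer partners of the receptors for retinoic acid, thyroid hormone, vitamin D, oxysterols, bile acids and fatty acids. In the adrenal gland the family is best known for Nr5a1 (SF-1) and Nr0b1 (DAX-1), which govern the steroidogenic cortex and are not among the 34 receptors. Several receptors of the list are known above all from other tissues, such as Hnf4a, Nr1i2 (PXR) and Nr1i3 (CAR) from liver, and Rxrg and Nr1h3 (LXRα) with fat among their sites.

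Some arrays stood apart, and these facts are needed for what follows. KO 1 carried the highest value of all 8 measured liver markers, with a mean over the list of 13.22 against 6.93 to 9.47 on the other 9 arrays, and the lowest value of all 6 chromaffin markers, with a mean of 8.33 against 11.57 to 12.67 on the others. KO 1 and KO 3 had the highest means of the brown adipocyte markers (10.19 and 10.21, against 6.62 to 9.28 on the other arrays) and of the adipocyte markers (12.69 and 12.35, against 8.58 to 10.60). Of the 6 brown adipocyte markers, 2 were highest on KO 1 and 3 on KO 3, while Dio2 was highest on WT 3 (6.34, against 5.92 on KO 3). KO 2, KO 5 and WT 3 lay together at one end of the first principal component over all probes, which took 53.8% of the variance, and these arrays come from both genotypes. KO 1, KO 2 and KO 5 are also the only KO arrays that enter the differences with batch as a block. The mean of the 8 cortex markers was 12.44 to 13.02 on KO arrays and 12.92 to 13.05 on WT arrays, and that of the 8 kidney markers 6.13 to 6.38 on KO arrays and 6.17 to 6.30 on WT arrays, and 5 of the 8 kidney markers had a mean below the olfactory receptor level introduced in the next paragraph. The endothelial, the capsule and stroma and the macrophage markers, 5 of each, were all lower on average in KO, against 53.2% of all genes. Their median differences were -0.34, -0.16 and -0.21. Kdr (-0.35, SE 0.14), Pdgfra (-0.28, SE 0.10) and Myh11 (-0.26, SE 0.11) had limma's unadjusted p under 0.05 and adjusted p = 0.999. What part these tissues have in the receptor values was not tested.

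Levels are log2 values from RMA, a method that summarises the probes of a gene, and a difference of 1 is a 2-fold ratio. Since probes differ in how well they bind, the order of receptors is an order of probe values. The 1012 olfactory receptor genes, which serve odour sensing in the nose, gave a floor: their 95th percentile was 6.48. Of the 34 receptors, 26 (76.5%) had a mean above it, as had 70.3% of all genes. The median level was 7.97 over the receptors and 7.56 over all genes. The median SD over the 10 arrays was 0.39 for the receptors and 0.26 for all genes.

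**Figure D1:**
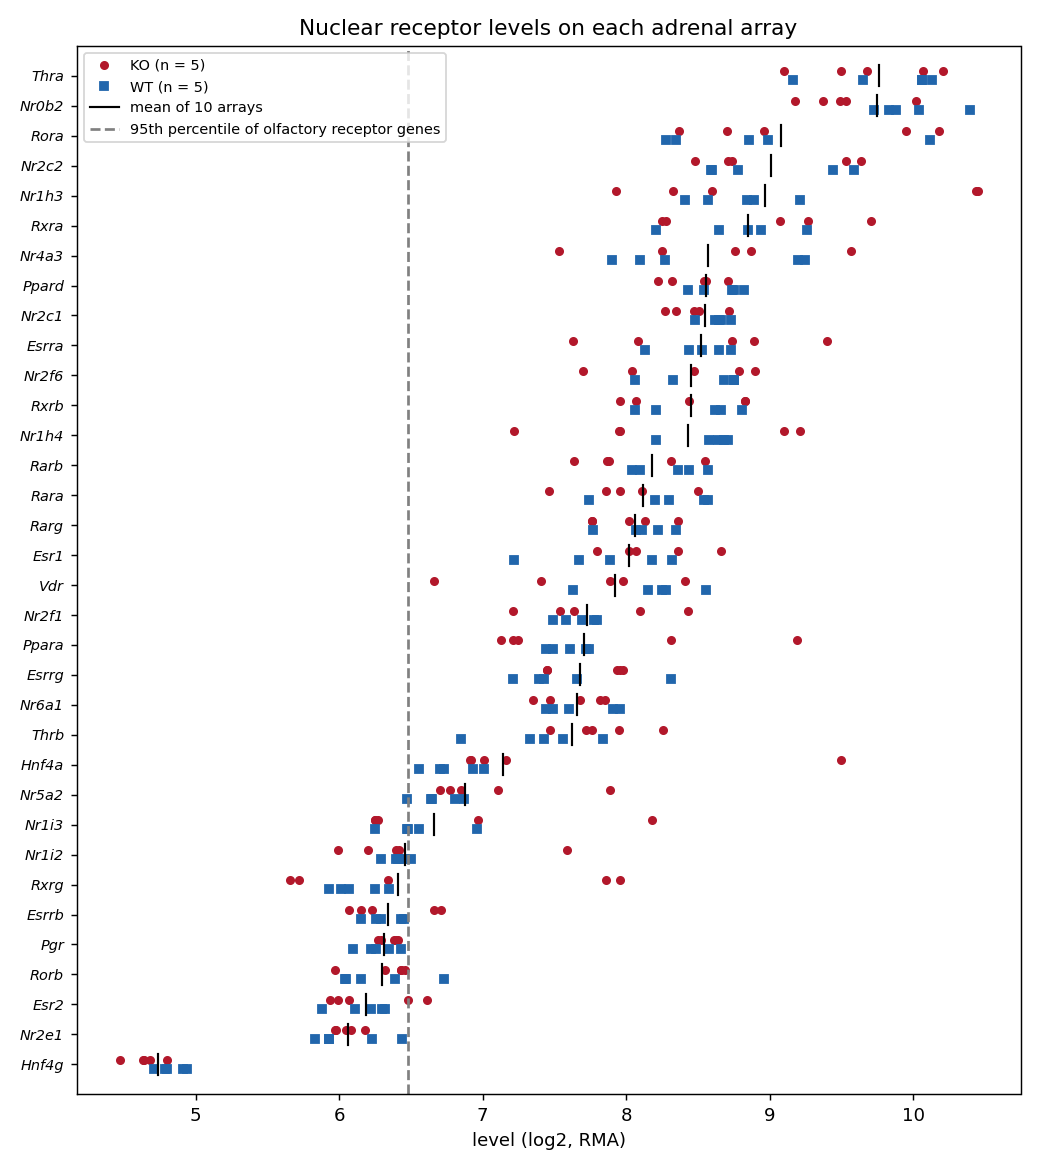
Level of each of the 34 receptors (rows, ordered by mean) on the 5 KO arrays (circles) and the 5 WT arrays (squares), in log2 RMA units on the horizontal axis; black ticks are means of the 10 arrays and the dashed line is the 95th percentile of olfactory receptor genes at 6.48. Thra and Nr0b2 are at the top with means of 9.76 and 9.75, 8 receptors have a mean left of the line, and single KO arrays lie far right of the others for Hnf4a, Nr1i3 and Nr1i2.

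Thra and Nr0b2 had the highest levels. Thra, which encodes thyroid hormone receptor α, stood at 9.68, 9.50, 10.21, 10.07 and 9.10 on KO 1 to KO 5, against 10.06, 10.13, 9.16, 9.65 and 10.06 on WT 1 to WT 5. Nr0b2 encodes SHP, an atypical receptor that lacks a DNA-binding domain and represses other receptors, Nr5a2 among them. Its levels were 9.18, 9.53, 9.49, 10.02 and 9.37 on KO 1 to KO 5, against 9.88, 10.04, 9.83, 9.73 and 10.40 on WT 1 to WT 5. The means of Thra (9.76 ± 0.41) and Nr0b2 (9.75 ± 0.36, SD over 10 arrays) differed by less than their spread, and both exceeded every olfactory receptor gene. Thra overlaps the clock gene Nr1d1 at its end on the opposite strand, and which part of Thra its probe covers is not known here.

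Rora, an orphan receptor that activates clock and metabolic genes, came next with a mean of 9.08 and wide spread. It was at 8.96, 10.18, 8.37, 8.70 and 9.95 on KO 1 to KO 5, against 8.86, 8.35, 10.12, 8.99 and 8.28 on WT 1 to WT 5. Nr2c2 (TR4), an orphan receptor that binds direct repeats, was at 8.48, 9.64, 8.71, 8.74 and 9.53 on KO 1 to KO 5, against 8.60, 8.59, 9.59, 9.44 and 8.78 on WT 1 to WT 5. For both genes KO 2, KO 5 and WT 3 were the 3 highest arrays, and the genotypes overlapped. Nr4a3 (NOR-1), an immediate early orphan receptor, was at 8.87, 9.57, 7.53, 8.25 and 8.76 on KO 1 to KO 5, against 8.27, 7.90, 9.25, 9.20 and 8.10 on WT 1 to WT 5. Its span of 2.04 was the fifth widest of the receptors, with KO 2 highest and KO 3 lowest.

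The other orphan receptors had smaller SDs over the arrays than these, at most 0.40. Nr2c1 (TR2), the paralog of Nr2c2, had a mean of 8.55 and lay at 8.47, 8.51, 8.27, 8.35 and 8.72 on KO 1 to KO 5, against 8.48, 8.62, 8.66, 8.65 and 8.73 on WT 1 to WT 5. Nr2f6 (EAR2) averaged 8.45, Nr2f1 (COUP-TFI) 7.73 and Nr6a1 (GCNF, known from germ cells and early embryos) 7.66. The brain receptors Rorb and Nr2e1 (TLX) averaged 6.30 and 6.06, below the olfactory 95th percentile.

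Among the retinoid X receptors, Rxra averaged 8.85, Rxrb 8.45 and Rxrg 6.41. Rxra was at 9.71, 8.28, 9.27, 9.07 and 8.25 on KO 1 to KO 5, against 8.85, 9.26, 8.21, 8.65 and 8.94 on WT 1 to WT 5. The 3 retinoic acid receptors had like levels, with means of 8.18 for Rarb, 8.12 for Rara and 8.06 for Rarg. Thrb, the second thyroid hormone receptor, averaged 7.62, and Vdr, the vitamin D receptor, 7.92.

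Of the estrogen related receptors, which drive mitochondrial genes together with PGC-1 coactivators, Esrra averaged 8.52, Esrrg 7.68 and Esrrb 6.34. Esr1, estrogen receptor α, averaged 8.02, while Esr2 and the progesterone receptor gene Pgr averaged 6.19 and 6.31. The values of Esr2, Pgr and Esrrb were below the olfactory 95th percentile, as were those of Nr1i2 (6.46), Rxrg, Rorb, Nr2e1 and Hnf4g (4.74), and a real signal cannot be told from background for these 8 by level alone. For Nr1i2 and Rxrg single arrays went well above that floor, as described next. Nr1i3 averaged 6.66, little above the floor, with 8.18 on KO 1 and 6.25 to 6.97 on the other arrays.

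A first group of receptors was high on KO 1. That array was the highest for 8 of the 34 receptors (23.5%), against 10.5% of all genes: Hnf4a, Nr1i2, Nr1i3, Nr5a2, Ppara, Nr1h3, Rxra and Esr1. Hnf4a, a master regulator of hepatocyte genes, was at 9.50, 6.91, 7.01, 7.16 and 6.92 on KO 1 to KO 5, against 7.01, 6.73, 6.70, 6.56 and 6.93 on WT 1 to WT 5. Nr1i3, which encodes the xenobiotic sensor CAR, was at 8.18, 6.27, 6.97, 6.25 and 6.25 on KO 1 to KO 5, against 6.47, 6.96, 6.25, 6.56 and 6.48 on WT 1 to WT 5. The other 9 arrays reached no higher than 7.16 for Hnf4a and 6.97 for Nr1i3. Nr5a2 (LRH-1), which drives bile acid synthesis genes in liver and is the closest relative of Nr5a1, was at 7.89, 6.70, 6.85, 7.11 and 6.77 on KO 1 to KO 5, against 6.87, 6.64, 6.65, 6.81 and 6.47 on WT 1 to WT 5. The xenobiotic sensor gene Nr1i2 was at 7.59 on KO 1 and at 5.99 to 6.42 on the other KO arrays, against 6.29 to 6.50 on WT arrays. These are the values that lie with the 8 liver markers.

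Other receptors of liver did not share that pattern. Nr1h4 (FXR), the bile acid receptor, was at 7.96, 9.10, 7.22, 7.95 and 9.21 on KO 1 to KO 5, against 8.21, 8.58, 8.68, 8.64 and 8.71 on WT 1 to WT 5. KO 1 was among the 3 lowest arrays for Nr1h4 and was the lowest of all for Nr0b2, a gene that FXR activates in liver. Hnf4g, the paralog of Hnf4a, was at 4.64, 4.63, 4.47, 4.80 and 4.68 on KO 1 to KO 5, against 4.79, 4.91, 4.80, 4.94 and 4.71 on WT 1 to WT 5, all of them low. Ppard, a fatty acid sensor of many tissues, varied little: it was at 8.56, 8.22, 8.54, 8.71 and 8.32 on KO 1 to KO 5, against 8.75, 8.82, 8.43, 8.54 and 8.74 on WT 1 to WT 5.

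The genes that FXR, PXR and CAR control in liver and gut were mostly low, and most but not all of them were highest on KO 1. Of 14 listed 13 were measured, 9 of them with a mean below the olfactory 95th percentile. Of the 13, 8 had their highest value on KO 1, against 10.5% of all genes, and 4 on KO 3, against 17.3%. Cyp3a11, a drug-metabolising enzyme under PXR, was at 11.19 on KO 1 and 3.94 to 6.74 on the other KO arrays, against 3.55 to 4.85 on WT arrays. Abcb11, the bile salt export pump, was at 10.65 on KO 1 and 5.22 to 6.47 on the other KO arrays, against 4.90 to 6.15 on WT arrays. The median difference of the 13 genes between KO and WT was 0.28 with all arrays, 0.02 without KO 1 and 0.32 with batch as a block, and 0 of them passed the test between genotypes.

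A second group was high on KO 1 and KO 3 together. These were the 2 highest arrays for 7 of the 34 receptors (20.6%), against 8.68% of all genes: Nr1h3, Rxrg, Ppara, Nr1i3, Rxra, Esrra and Esr1. All of them but Rxrg and Esrra are in the first group as well. For some the margin of KO 3 was slight: Nr1i3 (6.97, WT 2 at 6.96), Rxra (9.27, WT 2 at 9.26) and Esr1 (8.36, WT 3 at 8.32). Nr1h3, a sensor of oxysterols, was at 10.45, 7.93, 10.44, 8.60 and 8.33 on KO 1 to KO 5, against 9.21, 8.89, 8.57, 8.41 and 8.84 on WT 1 to WT 5. Rxrg was at 7.86, 5.66, 7.96, 6.34 and 5.72 on KO 1 to KO 5, against 6.35, 6.07, 6.01, 5.93 and 6.25 on WT 1 to WT 5. Ppara, which switches on fatty acid oxidation in liver and brown fat, was at 9.19, 7.21, 8.31, 7.13 and 7.25 on KO 1 to KO 5, against 7.49, 7.44, 7.74, 7.61 and 7.72 on WT 1 to WT 5. The other 3 KO arrays lay below all WT arrays for Ppara. KO 1 and KO 3 are the arrays with the highest brown adipocyte and adipocyte marker means given above.

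The targets of these receptors were measured too. Of all genes, 10.5% were highest on KO 1, 13.1% lowest on KO 1 and 17.3% highest on KO 3. For PPAR, 14 of 17 listed targets were measured, 6 of them highest on KO 1, 4 highest on KO 3 and 1 (Cpt1a) lowest on KO 1. Their median difference between KO and WT was 0.17 with all arrays and -0.03 without KO 1. Among these targets, Angptl4, an inhibitor of lipoprotein lipase, was at 11.40 and 10.71 on KO 1 and KO 3 and at 8.60 to 8.80 on the other KO arrays, against 8.46 to 9.85 on WT arrays. For LXR all 11 listed targets were measured, 5 highest on KO 1, 3 highest on KO 3 and 2 (Abca1 and Scd2) lowest on KO 1. Their median difference was 0.03 over all arrays and -0.18 without KO 1. Srebf1, the regulator of fatty acid synthesis, was at 10.79 and 11.41 on KO 1 and KO 3 and at 9.29 to 10.27 on the other KO arrays, against 9.82 to 10.34 on WT arrays. For the estrogen related receptors 8 of 9 partners and targets were measured, 4 of them highest on KO 3, with a median difference of 0.13 over all arrays, 0.05 without KO 1 and 0.00 with batch as a block.

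**Figure D2:**
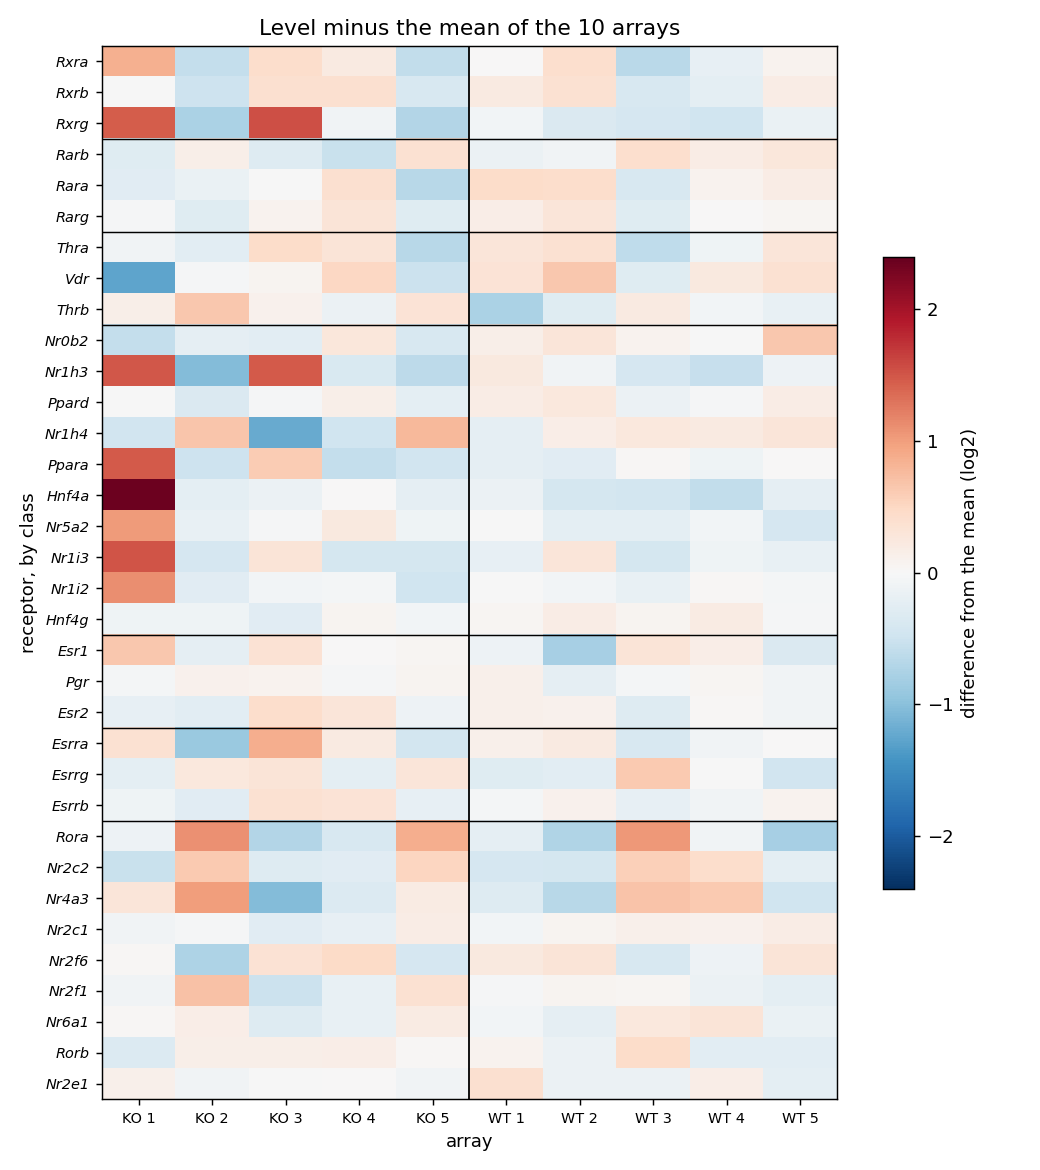
Level of each receptor (rows, by class) on each array (columns, KO left of WT) minus its mean over the 10 arrays, in log2 units by colour, red above and blue below the mean. From the top the classes are retinoid X receptors, retinoic acid receptors, thyroid hormone and vitamin D receptors, lipid, bile acid and xenobiotic sensors, estrogen and progesterone receptors, estrogen related receptors and orphan receptors; the reddest cells lie on KO 1 and KO 3, in the sensor class and at Rxrg, with Hnf4a reaching 9.50 on KO 1.

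The arrays that stood apart on the first component divided the receptors in another way. KO 2, KO 5 and WT 3 were the 3 highest arrays for Rora, Nr2c2 and Thrb, which is 8.82% of the receptors against 12.2% of all genes. They were the 3 lowest for 9 receptors: Rxra, Rxrb, Thra, Rarg, Ppard, Nr2f6, Esrra, Esrrb and Nr1i2, which is 26.5% against 18.1% of all genes. The same arrays were the 3 highest for 3 of 6 corepressor genes (Nrip1, Lcor and Tbl1xr1) and 2 of 11 coactivator genes (Ncoa6 and Med1), and the 3 lowest for 1 coactivator gene, Carm1. Other lists showed these arrays too. They were the 3 lowest for 4 of 11 LXR targets and 3 of 8 estrogen related receptor partners and targets. The same held for 3 of 5 macrophage and 3 of 8 kidney markers. In these lists they were the 3 highest for 0 genes. The corepressor subunit Tbl1xr1 was at 10.31 and 9.96 on KO 2 and KO 5 and at 7.84 to 8.67 on the other KO arrays, against 9.73 on WT 3 and 8.03 to 9.50 on the other WT arrays. The 3 arrays come from batches 1 and 3, and the source of the pattern was not tested.

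Between genotypes no receptor passed the test. By limma over 25664 probes, 0 of 34 receptors had an adjusted p under 0.05 and the smallest was 0.999, and over all probes the share called was 0.0%. At an unadjusted p under 0.05, 1 receptor was lower in KO (2.94%; 2.5% of all probes) and 0 were higher (0.923% of all probes). No receptor had KO and WT levels that did not overlap, which held for 0.717% of all genes. Counting any size, 20 receptors were higher in KO (58.8%, against 46.8% of all genes) and 14 were lower, and the median difference, KO minus WT, was 0.05 over the receptors and -0.01 over all genes. The sign was the same over all arrays, within batch 1 and within batch 3 for 18 of 34 receptors (52.9%) and for 53.8% of all genes.

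Nr0b2 was the receptor lower at an unadjusted p under 0.05. It averaged 9.52 ± 0.31 on KO arrays and 9.98 ± 0.26 on WT arrays (SD, n = 5 each). The difference was -0.46 (SE 0.17) with limma's adjusted p = 0.999 and unadjusted p = 0.024, and a two-sided exact permutation test gave p = 0.0317, without correction for the 34 receptors. KO 1, KO 2, KO 3 and KO 5 lay below every WT array, and KO 4 at 10.02 lay above all but WT 2 and WT 5. The same arrays, and so no independent ones, gave a difference of -0.52 within batch 1 (1 WT array) and -0.50 within batch 3 (1 KO array). With batch as a block it was -0.51, a weighted mean of these and so no further support. Leaving out single arrays it was -0.37 without KO 1, -0.42 without KO 5 and -0.35 without WT 5, and in these fits the unadjusted p was above 0.05. Nr5a1, which is known to activate the Nr0b2 promoter and is one of the cortex markers, differed by -0.47 (SE 0.17, limma's adjusted p = 0.999). With batch as a block it differed by -0.66. All 8 cortex markers were lower in KO, against 53.2% of all genes, with a median difference of -0.14. That median was -0.08 without KO 1 and -0.08 with batch as a block. A link between Nr5a1 and Nr0b2 was not tested.

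Thrb had the second smallest limma p. By the exact permutation test Hnf4g (p = 0.0317) and Hnf4a (p = 0.0556) came before it. It was at 7.76, 8.26, 7.72, 7.47 and 7.95 on KO 1 to KO 5, against 6.85, 7.33, 7.84, 7.56 and 7.43 on WT 1 to WT 5. The difference was 0.43 (SE 0.19, limma's unadjusted p = 0.0503, adjusted p = 0.999) and the exact permutation p was 0.0714. It was 1.16 within batch 1, 0.37 within batch 3 and 0.74 with batch as a block (unadjusted p = 0.0158, adjusted p = 0.582). KO 2 and KO 5, the highest arrays for Thrb among KO, are among the 3 arrays that stood apart on the first component. Of 12 genes of thyroid hormone transport, metabolism and response 10 were measured, 8 higher and 2 lower in KO with a median difference of 0.18 (0.06 without KO 1, 0.03 with batch as a block), and 0 passed the test. Dio1, the liver and kidney deiodinase, was at 7.79 on KO 1 and 5.53 to 6.34 on the other KO arrays, against 5.31 to 6.17 on WT arrays. Slc16a10, a thyroid hormone transporter, differed by 0.28 (SE 0.19).

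Vdr had the most negative difference, with a standard error to match. It was at 6.66, 7.89, 7.98, 8.41 and 7.41 on KO 1 to KO 5, against 8.25, 8.56, 7.63, 8.15 and 8.28 on WT 1 to WT 5. KO 1 held the lowest value, and the same array held the lowest value of all 6 chromaffin markers and of 6 of 8 cortex markers, and the highest of all 8 liver markers. The difference was -0.50 (SE 0.30, adjusted p = 0.999) with all arrays and -0.25 without KO 1. Within batch 1 it was -0.97 and within batch 3 -0.71, and with batch as a block -0.83. Of 7 genes of vitamin D metabolism and response 5 were measured, 3 of them below the olfactory 95th percentile, with a median difference of 0.16 (0.01 with batch as a block), and 0 passed the test. Cyp2r1, the 25-hydroxylase, differed by 0.50 (SE 0.24) and Trpv6, a calcium channel, by 0.16 (SE 0.11).

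The remaining differences rested on few arrays or were small. Hnf4a had the most positive one, 0.72 (SE 0.45, adjusted p = 0.999), which was 0.22 without KO 1. Rxrg differed by 0.59 (SE 0.45) and by -0.21 without KO 1 and KO 3, which were left out together only after their values were seen. For Nr1h3 the difference was 0.36 (SE 0.49), and -0.50 without these arrays. Ppara went likewise, at 0.22 (SE 0.37) with all arrays and -0.41 without KO 1 and KO 3. These arrays were left out because they were high, which lowers the KO mean by construction. Ppara was already at -0.13 without KO 1 alone. With batch as a block, where KO 3 does not enter the difference either, the values were 0.04 for Rxrg, -0.16 for Nr1h3 and 0.15 for Ppara. Nr5a2 differed by 0.38 (SE 0.21) and by 0.17 without KO 1 or 0.24 with batch as a block.

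Nr1h4 differed by -0.28 (SE 0.35), with KO 2 and KO 5 above all WT arrays and KO 1, KO 3 and KO 4 below them. Within batch 1 its difference was 0.32 and within batch 3 it was 0.58, the opposite sign, where KO 5 is the lone KO array. All 3 retinoic acid receptors were lower in KO with all arrays, by -0.29 (SE 0.21) for Rara, -0.25 (SE 0.18) for Rarb and -0.10 (SE 0.15) for Rarg. Rara was -0.66 within batch 1 and -0.70 within batch 3. Their weighted mean, with batch as a block, was -0.68 (limma's unadjusted p = 0.0165, adjusted p = 0.582). Rarb did not keep its sign, with 0.06 within batch 1 and 0.21 within batch 3. Hnf4g, at a level where signal and background cannot be told apart, differed by -0.19 (SE 0.09).

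Of the rest, Esr1 differed by 0.33 (SE 0.23) and Esrrg by 0.15 (SE 0.21). Rora differed by 0.31 (SE 0.43), with 0.08 without KO 2, 0.61 without WT 3 and 0.76 with batch as a block. Nr1i3 differed by 0.24 (SE 0.35), and by -0.11 without KO 1. Negative differences were -0.18 (SE 0.12) for Ppard, -0.16 (SE 0.10) for Nr2c1 and -0.13 (SE 0.24) for Nr2f6, which were -0.31, 0.05 and -0.46 in that order with batch as a block. The differences of Rxra, Nr1i2, Nr2f1, Pgr, Esr2, Esrra, Nr4a3, Rorb, Esrrb, Nr2c2, Nr2e1, Rxrb, Nr6a1 and Thra lay between -0.10 and 0.13. With batch as a block they spread from -0.51 for Thra to 0.43 for Nr4a3, with -0.37 for Rxrb and for Esrra, 0.38 for Nr2c2 and 0.36 for Nr2f1. Thra was -0.47 within batch 1 and -0.54 within batch 3 (-0.10 over all arrays, SE 0.25). Over all arrays these receptors had limma's adjusted p = 0.999.

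**Figure D3:**
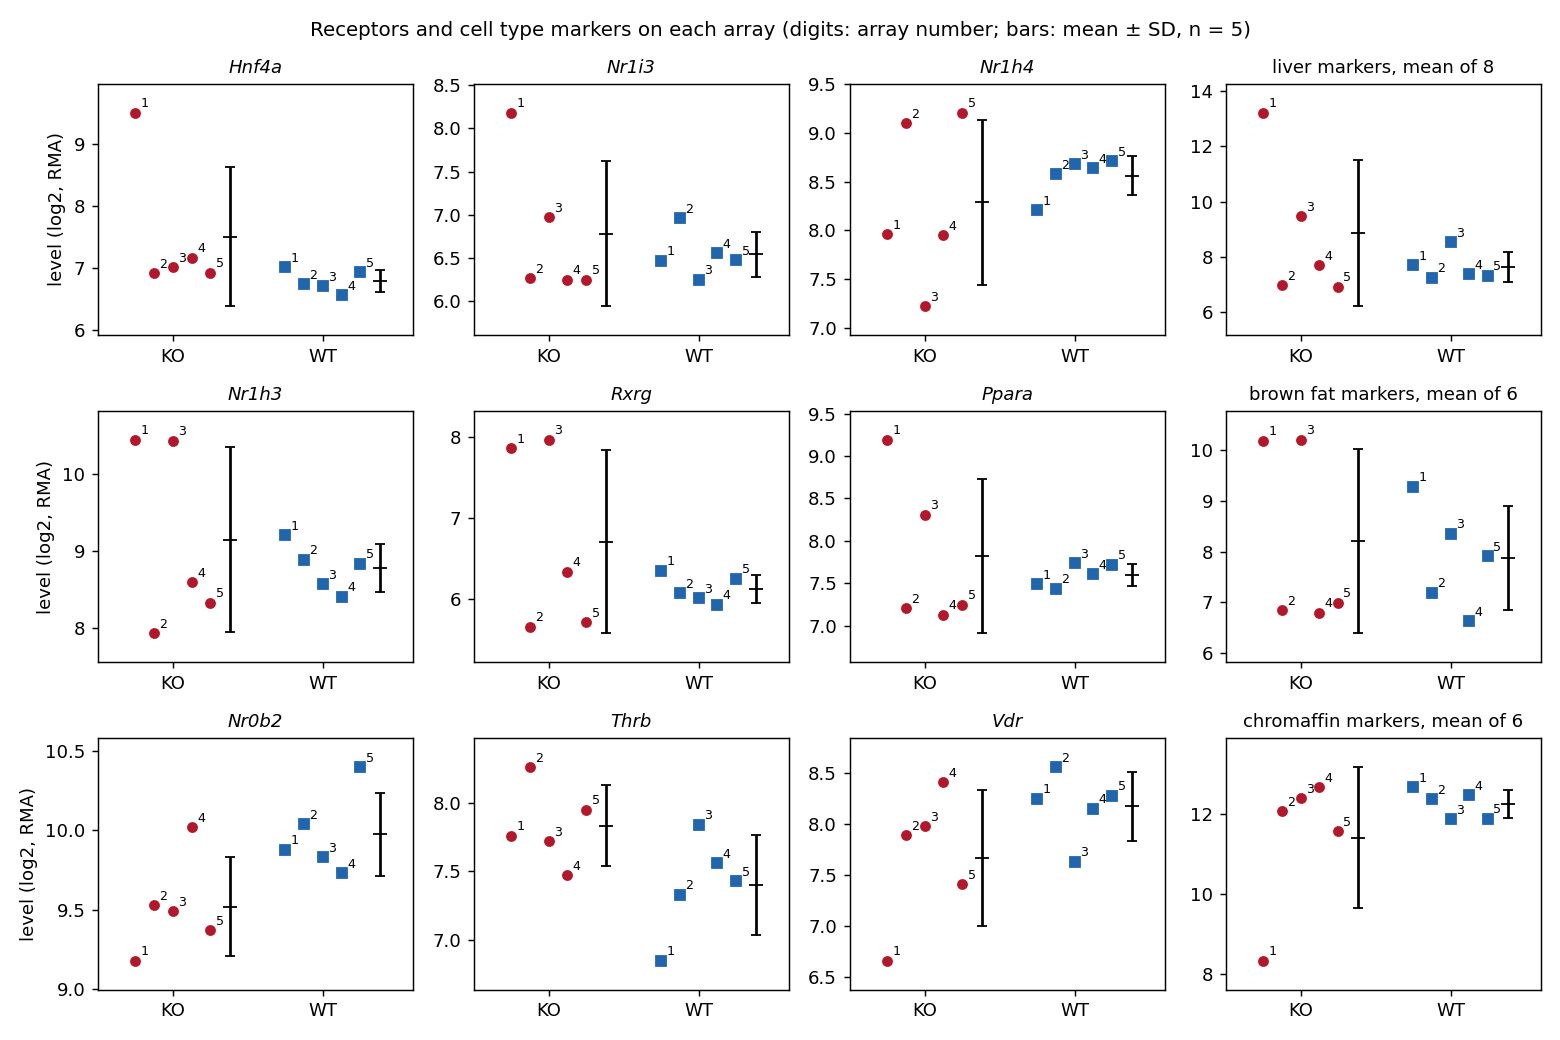
Level (log2 RMA, vertical axis) on the 5 KO arrays (circles, left) and the 5 WT arrays (squares, right) of 9 receptors and of the mean of the liver, brown adipocyte and chromaffin markers, with array numbers beside the points and mean ± SD (n = 5) beside each group. Hnf4a and Nr1i3 share their highest array, KO 1, with the liver markers, Nr1h3 and Rxrg share KO 1 and KO 3 with the brown adipocyte markers, and Vdr shares its lowest array, KO 1, with the chromaffin markers.

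**Figure D4:**
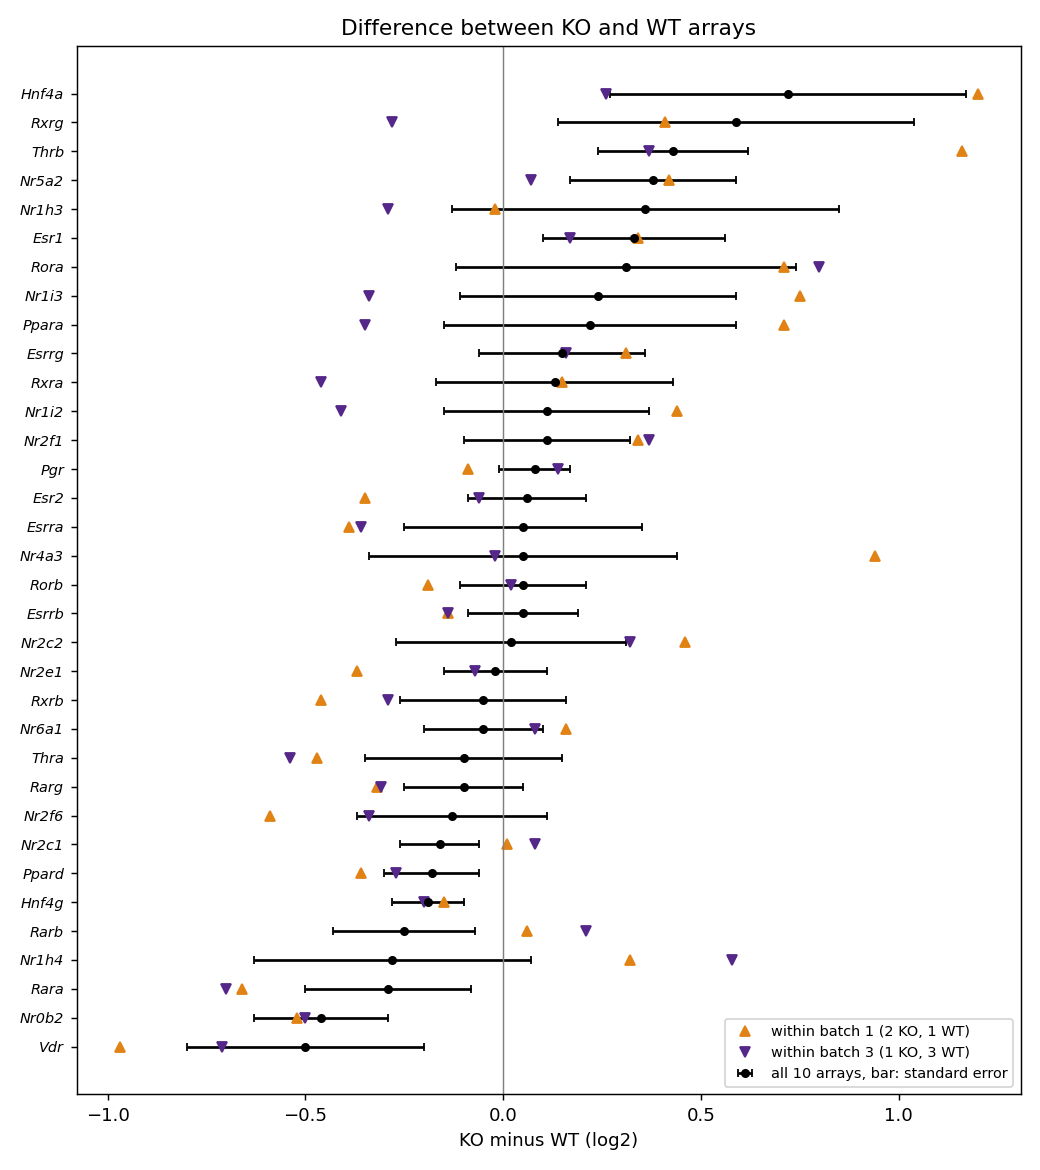
Difference between KO and WT (log2, horizontal axis) for each receptor over all 10 arrays (circles, bars are standard errors), within batch 1 (upward triangles, 2 KO and 1 WT) and within batch 3 (downward triangles, 1 KO and 3 WT). Nr0b2 is alike in all 3, which share arrays, at -0.46, -0.52 and -0.50, while Nr1h4 lies left of 0 over all arrays and right of 0 within both batches.

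The partners of the receptors were counted in the same fit. Of 8 corepressor genes 6 were measured, 3 higher and 3 lower in KO with a median difference of 0.09, or 0.35 with batch as a block; Nrip1 (RIP140) differed by 0.43 (SE 0.37) and Lcor by 0.21 (SE 0.28). All 11 coactivator genes were measured, 3 higher and 8 lower with a median of -0.14 over all arrays and 0.12, the other direction, with batch as a block. Pprc1, a PGC-1 related coactivator, differed by -0.36 (SE 0.11) with 7.64 to 7.88 on KO arrays and 7.81 to 8.26 on WT arrays. Ncoa3, a p160 coactivator, differed by -0.29 (SE 0.12). Of 17 genes of retinoid metabolism and retinoic acid response 16 were measured, 8 higher and 8 lower with a median of -0.01, or -0.10 with batch as a block. Of the 16, 9 were highest and 2 lowest on KO 1, against 10.5% and 13.1% of all genes. Lrat, which esterifies retinol, differed by 0.31 (SE 0.16) and Cyp26b1, which degrades retinoic acid, by 0.18 (SE 0.13). Cpt1a, a PPAR target at the entry of fatty acids into mitochondria, differed by -0.46 (SE 0.17), and Cyp4a14, a fatty acid hydroxylase of the same list, by 0.64 (SE 0.33). The LXR targets Scd2 and Abcg1 differed by -0.27 (SE 0.13) and -0.25 (SE 0.23), and the estrogen related receptor targets Ndufa4 and Pdk4 by 0.17 (SE 0.18) and 0.68 (SE 0.75). The receptors of cortex and clock, 10 of 12 measured, were higher in 3 cases and lower in 7, with a median of -0.05 over all arrays and 0.28 with batch as a block, and Nr4a1 differed by -0.87 (SE 0.58). Adjusted p was 0.999 for all genes named in this paragraph, and 0 genes of any list passed the test.

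CREM binds the cAMP response element TGACGTCA, so the promoters of the receptors were searched for it. Promoter windows of 250 bases before to 50 bases after the annotated start were available for 34 of the 36 receptors (53 windows, RefSeq, GRCm38.p6), with none matched for Thra and Hnf4g. The full element, which reads the same on both strands, was in 2 of 53 windows (3.77%), against 1.79% of all 32851 windows. The shorter TGACG or its reverse CGTCA, which the full element contains, was in 15 of 53 windows (28.3%), against 20.8% of all. Stretches around the elements that bear on the receptors are given here 5′ to 3′ on the gene's strand, with the element in capitals. Nr6a1 (window chr2:38926412-38926711, minus strand) and Nr2e1 (chr10:42583541-42583840, minus strand) hold the full element, starting at base 36 after the start and at base -125 before it, while Nr4a3 (chr4:48045055-48045354, plus strand) holds 4 copies of the shorter one, and Thrb (chr14:17660710-17661009, plus strand) holds 1.
Nr6a1: gcagcggcgcgTGACGTCAgaggagg
Nr2e1: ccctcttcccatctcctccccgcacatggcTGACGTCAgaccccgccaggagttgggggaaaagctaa
Nr4a3: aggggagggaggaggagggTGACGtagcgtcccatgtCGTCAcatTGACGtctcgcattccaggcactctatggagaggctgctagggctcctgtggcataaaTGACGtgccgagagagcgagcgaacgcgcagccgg
Thrb: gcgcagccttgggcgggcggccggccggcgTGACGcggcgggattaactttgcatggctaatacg

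Between genotypes, Nr6a1 differed by -0.05 (SE 0.15) and Nr2e1 by -0.02 (SE 0.13), with adjusted p = 0.999 for both, and Nr4a3 by 0.05 (SE 0.39). Over the 12 measured receptors with TGACG in a window, 6 were higher and 6 lower in KO with a median difference of 0.00. Over the 20 measured receptors with windows but no TGACG, 14 were higher and 6 lower with a median of 0.11. A match of letters is not a bound site, and no binding was measured in these samples.

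Receptors are often targets of receptors, and the same windows were searched for their elements. The hexamer AGGTCA or its reverse TGACCT was in 8 of 53 windows (15.1%), against 16.3% of all. The element of retinoic acid receptors known from the Rarb promoter, searched on both strands as GGTTCA and AGTTCA with 5 bases between them, was found in the Rarb window (chr14:16575427-16575726, minus strand), 1 of 2 windows among the 32851. Since the pattern was taken from this promoter, its match there was fixed in advance and is not a result. It is shown, in capitals with its spacer, because Rarb is itself a known target of retinoic acid.
Rarb: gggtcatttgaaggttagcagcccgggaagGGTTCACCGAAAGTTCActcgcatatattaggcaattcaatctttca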

How the data were processed

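The authors deposited a table of log2 values per probe, made by RMA according to the submitters' processing notes; the sources used here do not give the software or its version. Array medians lay between 7.17 and 7.25. Of 35557 rows, 25689 held values; 25 array controls were left out, and 25664 probes were tested. Genes were named through GEO's platform annotation; a probe with several symbols named none. Groups and batches came from the titles, and replicate numbers only name arrays.

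KO and WT were compared by a two-sided limma fit (lmFit, then eBayes) on genotype alone, run under R 4.3.3 with package version 3.58.1, with Benjamini-Hochberg adjustment over all probes and a threshold of 0.05. Single receptors also had an exact permutation test. P-values measure the spread between these arrays, whose number limits the precision. Within batch 1 and batch 3, a lone array was taken to vary like the others. The fit was tested on simulated data with independent noise, without batches or a pattern shared by arrays, so that test does not cover these features. The paper given with the series treats another tissue and lent no method. Members and gene lists were chosen with earlier results of these data known. Every measured receptor is named, and array values are given for the union of the 8 smallest p, the 8 largest SD and the 6 highest means (18 receptors); of the other gene lists, the 2 genes with the smallest p are named. Angptl4, Srebf1, Tbl1xr1 and the named endothelial and stromal markers were chosen after their values were seen.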

Additional observations from a re-analysis of the deposited data

Results flagged for a closer look

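Within each genotype, the highest and lowest arrays were compared with the rest by Dixon's test in 68 groups of 5 arrays, and 4 stood far from the others; chance alone gives about 1 in 20 groups. Of the 4, 3 were on KO 1. Hnf4a was at 9.50 on KO 1, where the next KO array was at 7.16. Nr1i2 was at 7.59 on KO 1, where the next KO array was at 6.42. Rorb was at 5.97 on KO 1, the lowest of the KO arrays, with the next at 6.32, all of them below the olfactory 95th percentile. Nr1h4 was at 8.21 on WT 1, the lowest of the WT arrays, with the next at 8.58.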

How the results depend on the processing

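With 5 arrays a group and batches spread unevenly over genotypes, 0 receptors passed an adjusted p under 0.05 in any fit run. The number at an unadjusted p under 0.05, with the share of all probes tested at the same p in brackets, was 1 over all arrays (3.42%), 3 with batch as a fixed block (7.18%), 2 with batch as a random block (3.45%), 0 within batch 1 (0.873%), 2 with array medians shifted (3.6%), 3 with quantile normalisation repeated (2.75%), 2 with trend and robust eBayes (2.95%) and 4 with arrayWeights (6.49%). It lay between 0 and 4 when single arrays were left out (0 without KO 1 or WT 5, 2 without KO 5 or WT 3 and 4 without KO 4; 1.96% to 5.7%). In alternatives chosen after seeing the data it was 2 without KO 1 and KO 3 (Nr1h3 and Ppara, both lower; 2.7%) and 7 without KO 2, KO 5 and WT 3 (Nr5a2, Rxrg, Esr1 and Esrra higher, Nr1h4, Nr2c1 and Rarb lower, smallest adjusted p = 0.352; 12.2%). The cause was not tested.

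The sign turned for Nr1h3 (-0.50) and Ppara (-0.41) without KO 1 and KO 3. It turned for Nr1h4 (0.58) within batch 3, where KO 5 alone was taken to vary like the WT arrays, while the SD of Nr1h4 was 0.85 over KO and 0.20 over WT arrays, so that its p is not read. At any p the sign changed for 11 of 34 receptors with batch as a fixed block, 1 as a random block, 10 within batch 1, 14 within batch 3, 1 with arrayWeights, 2 to 6 without single arrays (6 without KO 1), 10 without KO 1 and KO 3 and 6 without KO 2, KO 5 and WT 3. With shifted medians it changed for Nr2c2 and with quantile normalisation for Rxrb. Nr0b2 kept its sign in all of these, which was not particular to it. Rara, Rarg and Ppard stayed negative and Rora, Esr1, Esrrg and Nr5a2 stayed positive in all of them too. The count above the olfactory 95th percentile was 26 from WT arrays alone and 26 to 28 when single arrays were left out. No paired analysis was possible because replicate numbers follow accession order and mark no shared animal.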
